A study of Homo sapiens with 8 samples.

Results

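The genes examined here control the step from G2 into mitosis, with the kinase WEE1 as the leading member. There are 10 of them among 20176 protein coding genes: WEE1, PKMYT1, CDK1, CDC25A, CDC25B, CDC25C, CCNB1, CHEK1, PLK1 and AURKA. They were listed by their known role in this step, with earlier results of these data known. The question was whether FLI1, a transcription factor of the ETS family, had a binding site at their transcription start sites (TSS). FLI1 ChIP-Seq had been done in OCI-Ly1 and VAL, which are established lines of the germinal center B-cell (GCB) type of diffuse large B-cell lymphoma, with 2 FLI1 libraries per line, a rabbit polyclonal antibody and no treatment named in the labels. Each library pooled at least 5 parallel immunoprecipitations. The series also has 4 samples of input DNA, not used here.

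Entry into mitosis is driven by CDK1 bound to cyclin B1, the product of CCNB1. WEE1 and PKMYT1 (also called MYT1) hold this complex inactive by phosphorylating CDK1 near its ATP-binding site, and the phosphatases CDC25A, CDC25B and CDC25C take these phosphates off. CHEK1 is activated when DNA is damaged or replication stalls and restrains the CDC25 phosphatases, whereas AURKA activates PLK1, which promotes CDC25 activity and the destruction of WEE1. Germinal center B cells and the lymphomas derived from them divide fast, and WEE1, CHEK1 and the Aurora kinases are drug targets.

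The values were those of the peak lists, 1 list per library. For each gene and library the best peak was the listed peak with the highest -log10 q among those centred within 3 kb of any annotated TSS of the gene, and a peak was called passing at a -log10 q of at least 3. OCI-Ly1 replicate 2, called the OCI-Ly1 library below, had 5354 passing peaks, VAL replicate 1 had 973 and VAL replicate 2 had 6474. The list of OCI-Ly1 replicate 1 held 37 intervals, 33 of them longer than 1 Mb, and none of the 10 genes lay in its only passing interval, so it was not used and values of OCI-Ly1 have no replicate. Read totals were not part of the lists, and depth was known only through the number of reads at a summit, inferred from the fold enrichment and the p-value. The lowest number of reads of a passing peak was 6 for the OCI-Ly1 library, 8 for VAL replicate 1 and 6 for VAL replicate 2. Peak lists hold no expression values, so the identity of the lines was not checked with marker genes.

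FLI1 had a passing peak in either line at 4 of the 10 genes, where 27.4% of protein coding genes had such a peak. These were the inhibitory kinases WEE1 and PKMYT1 and the phosphatases CDC25B and CDC25C. WEE1, PKMYT1 and CDC25C passed in both lines (12.6% of protein coding genes) and CDC25B in VAL only. CDK1, CCNB1, CDC25A, CHEK1, PLK1 and AURKA had none. The same site passed in both lines at WEE1 and at PKMYT1 and at no other of the 10 genes (12.1% of protein coding genes). Among these sites, only that of WEE1 held CCGGAAA or CCGGAAG, the extended ETS words sought, within 50 bp of the summit. Such a word was present at 44.7% of passing promoter peaks of the OCI-Ly1 library and 37.7% of those of VAL replicate 2. Forms of the ETS motif without GGAA were not sought.

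The sequences under passing summits are shown because they carry this difference, and that of the CDC25C intron site described later is left out. They are the plus strand of the GRCh37 reference, 50 bp to each side of the summit, except at the CDC25C 5′ site, which lies in a UTR and is limited to 29 bases. Capitals mark TTTCCGG, the minus-strand form of an extended ETS motif, at WEE1, and the ETS core GGAA elsewhere. A sequence without capitals holds no GGAA on either strand.
WEE1 upstream site, chr11:9594613-9594713: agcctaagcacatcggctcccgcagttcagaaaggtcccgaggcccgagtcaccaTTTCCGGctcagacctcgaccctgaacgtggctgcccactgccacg
PKMYT1 3′ site, chr16:3018859-3018959: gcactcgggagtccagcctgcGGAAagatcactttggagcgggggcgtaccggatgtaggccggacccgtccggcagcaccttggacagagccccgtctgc
PKMYT1 inner site, chr16:3021685-3021785: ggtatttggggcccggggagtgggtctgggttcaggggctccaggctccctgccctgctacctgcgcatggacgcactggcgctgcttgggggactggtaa
CDC25B upstream site, chr20:3766811-3766911: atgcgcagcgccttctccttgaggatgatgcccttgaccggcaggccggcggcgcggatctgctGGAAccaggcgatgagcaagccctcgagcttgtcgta
CDC25C 5′ site, chr5:137673986-137674014: gaGGAAccgcggtaggtggtggagggcag

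At WEE1 (ENSG00000166483, chr11:9595217-9615004, plus strand), the kinase that phosphorylates CDK1 in the nucleus, the summits of the passing peaks lay just upstream of the gene. The passing peak of VAL replicate 2, from 9594436 to 9596587, extended across the 5′ end into the gene. The best peak of the OCI-Ly1 library had a -log10 q of 5.10, a fold enrichment of 6.29 and 9 reads at its summit (exact Poisson 95% interval 4.12 to 17.1) over a local background of 0.59 reads. The best peak of VAL replicate 2 had a -log10 q of 3.27, a fold enrichment of 5.15 and 6 reads (2.20 to 13.1) over a background of 0.359. The 2 intervals overlap, and all such intervals cover counting error only and are taken at the maximum of a peak. The summits were 1 bp apart, at 9594663 and 9594664, which is 554 and 553 bp upstream of the 5′ end of the gene, in a stretch with no annotated gene. The middle base of the motif CCGGAAA on the minus strand, at 9594668 to 9594674, was 8 and 7 bp from them.

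No peak was listed here in VAL replicate 1. Instead, its best peak near a WEE1 TSS lay 9650 bp into the gene, in an intron, with a -log10 q of 1.46, 8 reads (3.45 to 15.8) and a background of 1.18 reads. WEE1 thus passed in 1 of the 2 VAL libraries. Its peak was number 2632 of the list of the OCI-Ly1 library when ordered by -log10 q and number 5726 of that of VAL replicate 2. The best WEE1 value was higher than that of 88.2% of protein coding genes in the OCI-Ly1 library, 92.6% in VAL replicate 1 and 80.0% in VAL replicate 2.

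PKMYT1 (ENSG00000127564, chr16:3018025-3030480, minus strand) encodes the membrane-bound kinase that shares the CDK1 target with WEE1. Its passing peaks lay near the 3′ end of the gene, beside internal TSS, and not at its 5′ end. In the OCI-Ly1 library the best peak had a -log10 q of 3.85, a fold enrichment of 5.58 and 7 reads (2.81 to 14.4), with the summit in a noncoding exon 11571 bp from the 5′ end. VAL replicate 2 had a passing peak there too, with a -log10 q of 3.47 and 7 reads, and its summit was 20 bp away. The best peak of VAL replicate 2 was a separate site 8745 bp from the 5′ end, with a -log10 q of 3.79 and 7 reads, where the other libraries had no listed peak.

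Both PKMYT1 sites lay at another gene that is read in the opposite direction, PAQR4, which encodes a membrane protein of the progestin and adipoQ receptor family. The centre of the shared site was 43 bp from a PAQR4 TSS in the OCI-Ly1 library and 382 bp in VAL replicate 2, and the second VAL site, in a coding exon of PAQR4, was 808 bp from one. The peak of the OCI-Ly1 library was closer to PAQR4 than to the nearest PKMYT1 TSS, at 123 bp. A peak list cannot tell which of these genes a site belongs to. Neither site was listed in VAL replicate 1, which had a best -log10 q of 0.285, from 7 reads in an intron over a background of 2.01 reads.

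The CDC25 phosphatases differed from each other. CDC25C (ENSG00000158402, chr5:137620958-137674044, minus strand), which is activated at the onset of mitosis, had the highest value of the 10 genes in VAL replicate 2. This peak had a -log10 q of 5.87, a fold enrichment of 6.72 and 8 reads (3.45 to 15.8) over a background of 0.34, with its summit in the 5′ UTR exon, 44 bp from the 5′ end of the gene. A TSS of FAM53C on the opposite strand lay 222 bp from the peak centre. At the same site the OCI-Ly1 library had a listed peak with a -log10 q of 0.875 and 4 reads (1.09 to 10.2), and VAL replicate 1 a peak with a -log10 q of 0 and 5 reads over a background of 2.04.

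The passing CDC25C peak of the OCI-Ly1 library was a different site, 11777 bp away in an intron, with a -log10 q of 3.71, a fold enrichment of 5.40 and 6 reads (2.20 to 13.1). The 31 bases around this summit occur 6185 times in GRCh37, counting both strands, and those around every other passing summit of the 10 genes occur 1 time. The part of this repeat in the peak was not tested. CDC25C therefore counts as passing in both lines only through sites that do not overlap. The best -log10 q at CDC25C in VAL replicate 1 was 0.556.

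CDC25B (ENSG00000101224, chr20:3767419-3786768, plus strand), the phosphatase that acts first at the centrosome, passed in VAL replicate 2 alone. The peak had a -log10 q of 3.36, a fold enrichment of 5.20 and 6 reads (2.20 to 13.1), with its summit 558 bp upstream of the gene, in the coding exon of CENPB, a centromere protein gene on the opposite strand. The peak centre was 728 bp from the CDC25B TSS and 696 bp from a CENPB TSS. VAL replicate 1 had its best CDC25B peak 44 bp upstream of the gene, 514 bp from that summit and not overlapping it, with a -log10 q of 1.72 and 10 reads (4.80 to 18.4), more reads than in VAL replicate 2 but over a background of 1.67. The OCI-Ly1 library reached 1.61 with 4 reads, in the last part of the gene.

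CDC25A (ENSG00000164045, chr3:48198636-48229907, minus strand), which also acts at the G1/S transition, had a best -log10 q of 0.344 with 2 reads in the OCI-Ly1 library and of 1.18 with 4 reads in VAL replicate 2. These peaks were 14174 bp apart, and VAL replicate 1 had no listed peak there. The values lay far below the threshold in both libraries with a peak.

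**Figure D1:**
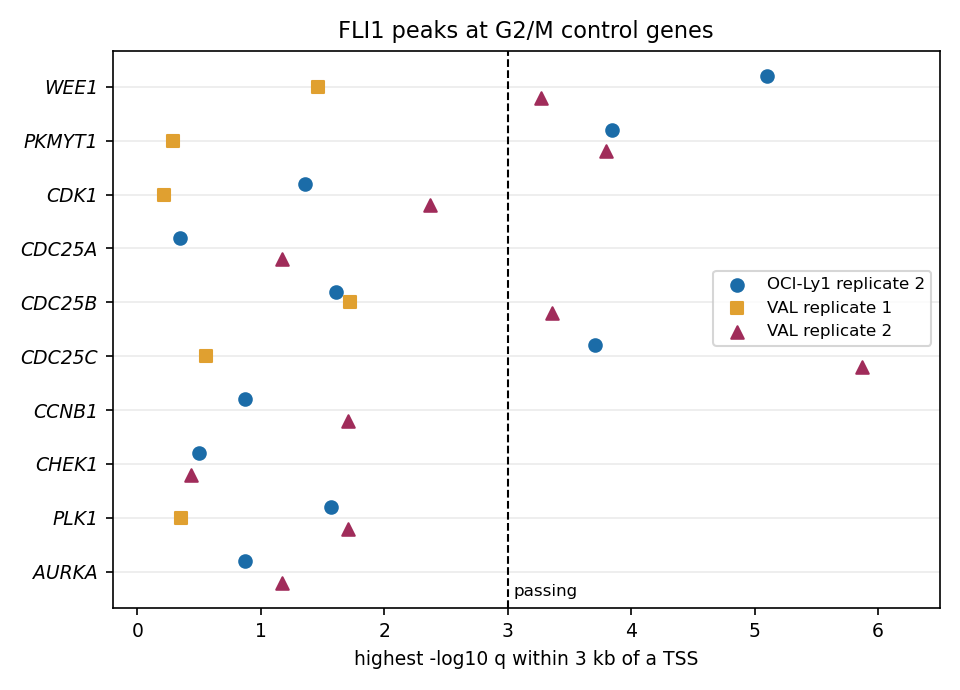
Highest -log10 q (x axis) of a FLI1 peak within 3 kb of a TSS of each of the 10 genes (y axis) in 3 libraries, with the passing threshold of 3 as a dashed line. WEE1, PKMYT1 and CDC25C lie past the line in the OCI-Ly1 library and VAL replicate 2 and CDC25B in VAL replicate 2, no gene passes in VAL replicate 1, and a gene without a symbol there had no listed peak.

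The mitotic kinase itself was below the threshold. CDK1 (ENSG00000170312, chr10:62538089-62554610, plus strand) had overlapping peaks at its 5′ end in the OCI-Ly1 library and VAL replicate 2, with summits 45 bp apart, 37 bp upstream and 8 bp downstream of the start. The first had a -log10 q of 1.36 with 4 reads over 0.377, and the second 2.37 with 6 reads over 0.538. WEE1 passed in VAL replicate 2 with the same 6 reads over a background of 0.359, so the 2 genes had equal reads there over different backgrounds. VAL replicate 1 had only a peak of 0.216, 2573 bp upstream.

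CCNB1 (ENSG00000134057, chr5:68462962-68474072, plus strand), which encodes cyclin B1, had a best -log10 q of 0.873 with 3 reads in the OCI-Ly1 library, 2439 bp upstream of the gene, and of 1.71 with 5 reads (1.62 to 11.7) in VAL replicate 2, 181 bp upstream. No peak was listed in VAL replicate 1. The VAL replicate 2 summit is shown because, of the best peaks that did not pass, it was the only one with CCGGAAA or CCGGAAG within 50 bp. The word was CCGGAAG on the minus strand, in capitals as CTTCCGG, with its middle base 24 bp from the summit.
CCNB1 upstream site, chr5:68462731-68462831: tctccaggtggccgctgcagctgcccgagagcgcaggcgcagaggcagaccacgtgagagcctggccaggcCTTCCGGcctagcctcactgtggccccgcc

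CHEK1 (ENSG00000149554, chr11:125495058-125546150, plus strand) was among the lowest. Its best -log10 q was 0.496 with 3 reads in the OCI-Ly1 library, 209 bp into the gene, and 0.435 with 2 reads in VAL replicate 2, in an intron, and VAL replicate 1 had no listed peak. These values were higher than those of 19.99% and 4.65% of protein coding genes. PLK1 (ENSG00000166851, chr16:23688977-23701688, plus strand) had best values of 1.57, 0.352 and 1.71 in the OCI-Ly1 library, VAL replicate 1 and VAL replicate 2, from 4, 6 and 4 reads, at 3 places inside the gene that did not overlap. AURKA (ENSG00000087586, chr20:54944445-54967393, minus strand) had 0.875 in the OCI-Ly1 library and 1.18 in VAL replicate 2, from 4 reads each, at places 1524 bp apart, and no listed peak in VAL replicate 1. None of these 3 genes had a place that was best in 2 libraries.

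The read numbers show how little separates the genes within a library. The best peaks had 2 to 9 reads in the OCI-Ly1 library, 2 to 8 reads in VAL replicate 2, and 5 to 10 reads at the 6 genes with a listed peak in VAL replicate 1. In each library the 95% intervals of all genes overlapped. In the OCI-Ly1 library the highest lower bound was 4.12 reads (WEE1) and the lowest upper bound 7.23 (CDC25A), and in VAL replicate 2 they were 3.45 (CDC25C) and 7.23 (CHEK1). The order of the genes by reads is thus not resolved at this depth, and a gene that did not pass may hold a weak site.

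**Figure D2:**
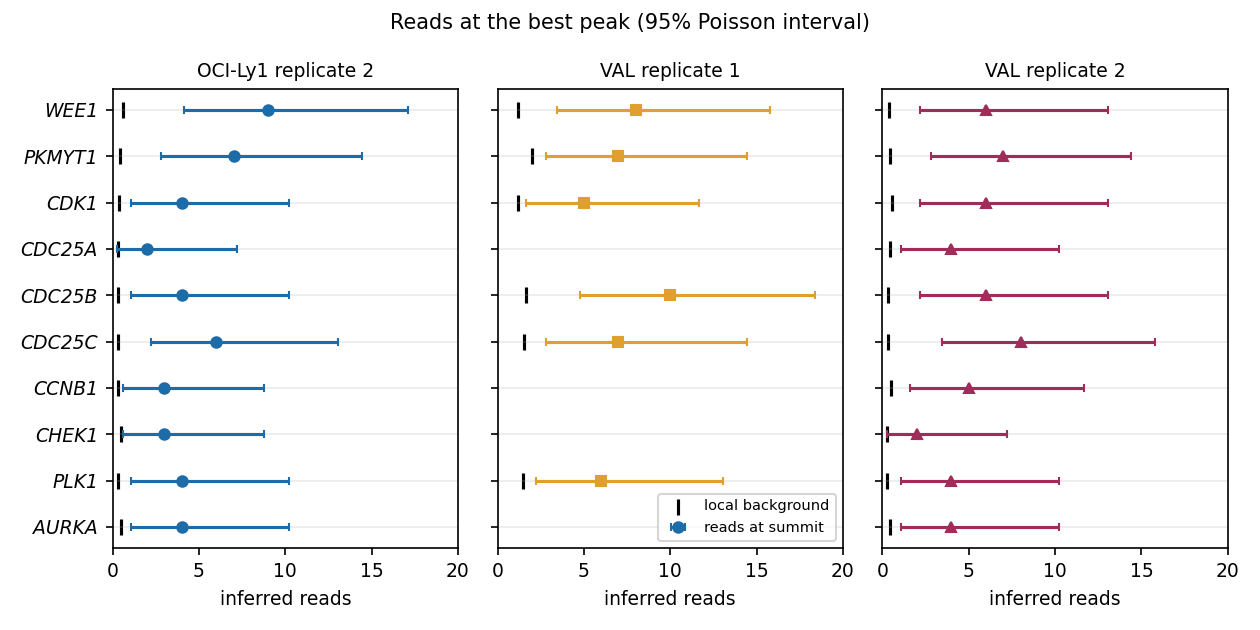
Inferred reads at the summit of the best peak (symbols, x axis) with exact Poisson 95% intervals (bars) and the local background (black ticks) for each gene in 3 libraries. The intervals overlap across all genes within each library, and the background is highest in VAL replicate 1.

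Read against all protein coding genes, the counts were as follows. In the OCI-Ly1 library, 3 of the 10 genes passed, and 19.0% of protein coding genes did. In VAL replicate 1 none of the 10 passed against 3.14%, and in VAL replicate 2 there were 4 against 20.8%. In either line 4 of the 10 passed against 27.4%, and in both lines 3 against 12.6%. Overlapping passing peaks in both lines were found at 2 of the 10 genes and at 12.1% of protein coding genes. With 10 genes each gene is 10% of the list, so each of these counts stands within 2 genes of the background.

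Genes with more annotated TSS have more chances to hold a peak. The 10 genes had a median of 9 TSS and protein coding genes a median of 5. Among genes with 5 to 10 TSS, 21.1% passed in the OCI-Ly1 library and 24.0% in VAL replicate 2. PKMYT1, with 20 TSS, and CHEK1, with 15, belong to the genes with 11 or more. Of those genes, 29.7% passed in the OCI-Ly1 library and 32.1% in VAL replicate 2. The median best -log10 q of the 10 genes was 1.47, 0.251 and 2.04 in the OCI-Ly1 library, VAL replicate 1 and VAL replicate 2, and that of all protein coding genes was 1.22, 0.183 and 1.63. VAL replicate 1 had no listed peak at 4 of the 10 genes and at 25.1% of protein coding genes.

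The position within the gene separated WEE1 from PKMYT1. When only the 5′ end of each gene record counted, WEE1 alone of the 10 genes passed in the OCI-Ly1 library (16.1% of protein coding genes), and WEE1, CDC25B and CDC25C passed in VAL replicate 2 (17.4%). WEE1 was then the only one in both lines, against 10.7% of protein coding genes.

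**Figure D3:**
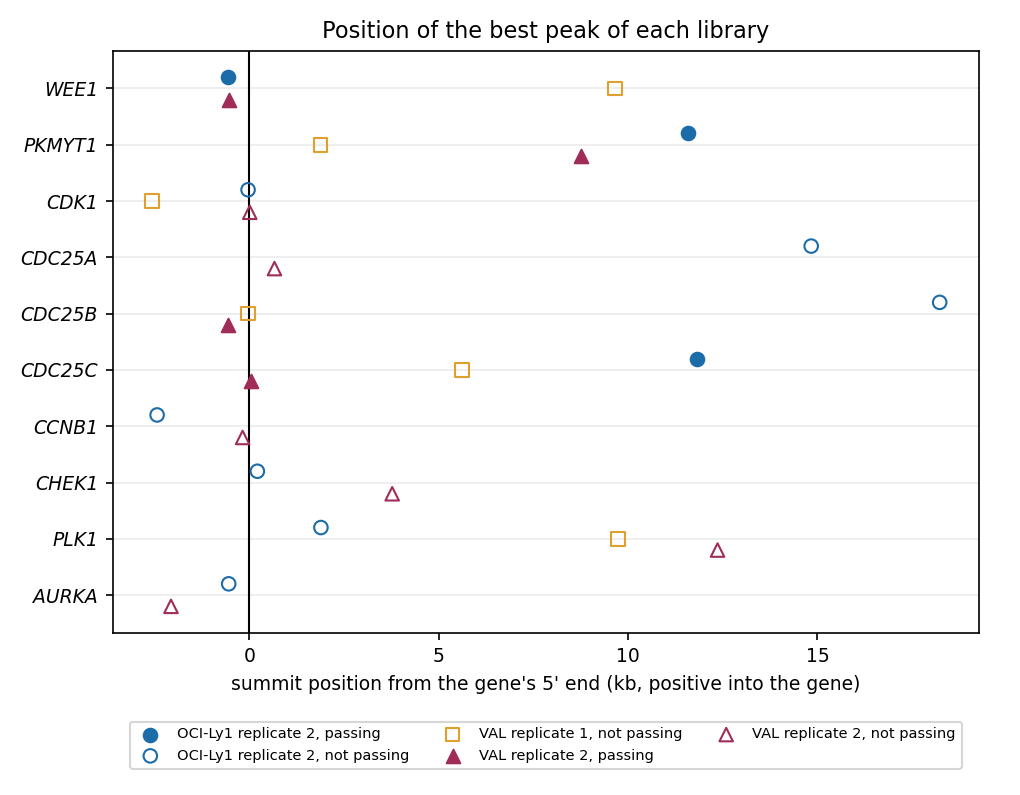
Distance of the best summit from the 5′ end of each gene in kb (x axis, positive into the gene) in 3 libraries, with filled symbols for passing peaks and open symbols for the others. The WEE1 summits of the OCI-Ly1 library and VAL replicate 2 coincide 554 and 553 bp upstream, whereas the passing PKMYT1 summits lie 11571 and 8745 bp into the gene.

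ETS motifs were then counted at the summits. The words CCGGAAA and CCGGAAG, which contain GGAA, were sought on both strands within 50 bp. One or the other was present at 44.7% of all passing promoter peaks of the OCI-Ly1 library, at 53.5% of those of VAL replicate 1 and at 37.7% of those of VAL replicate 2, against 3.51%, 4.19% and 2.98% in windows 250 bp away. Of the 4 passing genes only WEE1 had such a word at its best summit. GGAA alone was found at the best passing summit of at least 1 library for all 4 genes. It was absent at that of PKMYT1 in VAL replicate 2 and of CDC25C in the OCI-Ly1 library. GGAA was present at 86.4%, 89.1% and 83.7% of passing promoter peaks in the 3 libraries, against 64.4%, 63.9% and 64.4% in windows 250 bp away.

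Promoter sequences of RefSeq (GRCh38.p14, 250 bases before to 50 bases after the start) were matched for 7 of the 10 genes, as 16 promoters that in part overlap: CDK1, CDC25A, CDC25B, CDC25C, CCNB1, CHEK1 and PLK1. WEE1, PKMYT1 and AURKA were not matched. CCAAT, the word bound by NF-Y, was present in at least 1 promoter of all 7 genes and in 12 of the 16 promoters, against 34.6% of all 35116 promoters. TTTGAA or TTCGAA, the words of the cell cycle homology region through which many G2/M genes are controlled, were present at CDK1, CDC25B, CDC25C and PLK1, in 6 of 16 promoters against 16.4%. CCGGAAA or CCGGAAG was present in 1 promoter, that of CCNB1, against 13.4% of all promoters. All words were sought on both strands, and a match is no evidence that a factor binds.

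Passing peaks outside their promoters but within 50 kb of the gene were found at 4 of the 10 genes, PKMYT1, CDC25A, CDC25B and PLK1, and at 10085 of the 20176 protein coding genes (50%). There were 8 such peaks over all libraries, and none lay inside one of the 10 genes. The highest was at PLK1, a peak 35894 bp upstream with a -log10 q of 29.8 and 24 reads in the OCI-Ly1 library, and of 16.8 and 15 reads in VAL replicate 2, with summits 5 bp apart and an ETS motif. This peak is in the promoter shared by DCTN5 and PALB2, a partner of BRCA2 in DNA repair, and is far above any value at the 10 genes. At PKMYT1 a peak about 40 kb away in the promoter of CLDN6 and TNFRSF12A had a -log10 q of 14.8 in the OCI-Ly1 library and 9.40 in VAL replicate 2. WEE1, CDK1, CDC25C, CCNB1, CHEK1 and AURKA had no further passing peak within 50 kb.

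The pathway around the 10 genes was described with a list of 51 further G2/M genes. Of these, 21 passed in the OCI-Ly1 library (41.2%, against 19.0% of protein coding genes), 1 in VAL replicate 1 (1.96%, against 3.14%) and 22 in VAL replicate 2 (43.1%, against 20.8%). In either line 27 passed (52.9%, against 27.4%), and 17 passed in both lines (33.3%, against 12.6%). The list was chosen with earlier results of these data known, so its shares are descriptive only. Other genes with a TSS near its peaks were not examined. The 51 genes had a median of 8 TSS. At 13 of the 16 genes that passed in both the OCI-Ly1 library and VAL replicate 2, the best summits lay within 200 bp of each other, and at RAD9A, LIN37 and LIN54 they were 54824, 2967 and 2253 bp apart. The median best -log10 q of the list was 2.18, 0.183 and 2.56 in the 3 libraries.

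Of the 10 checkpoint kinases and sensors, 8 passed in both lines, where 12.6% of protein coding genes did. ATR, the kinase that activates CHEK1, had a -log10 q of 21.3 with 19 reads in the OCI-Ly1 library and of 6.56 with 8 reads in VAL replicate 2, with an ETS motif near the summit in each, and 1.54 with 11 reads in VAL replicate 1. The parts of the 9-1-1 clamp, which marks damaged DNA for ATR, all passed in both lines. In the OCI-Ly1 library and VAL replicate 2, HUS1 had 19.6 and 9.48, RAD1 had 16.5 and 7.90 and RAD9A had 8.97 and 3.995. The best RAD9A summits of these libraries were 54824 bp apart. The clamp loader RAD17 had 4.71 and 7.68, and TOPBP1, which activates ATR, had 7.59 and 8.38. CLSPN, the adaptor that brings CHEK1 to ATR, had 5.54 and 3.21, and ATM, the kinase of double-strand breaks, had 9.54 and 11.01. The other 2 did not pass in either line, and neither did CHEK1, on which most of these genes act.

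Other roles were more mixed. Their small counts stand beside 27.4% of protein coding genes passing in either line and 12.6% in both. Of the 6 cyclins and CDK partners, CKS1B and CKS2, small subunits that bind CDKs, passed in both lines. CKS1B was the only gene of the list to pass in VAL replicate 1, with 3.23 and 15 reads, and had 6.48 in the OCI-Ly1 library and 2.24 in VAL replicate 2. CKS2 had 6.47 in the OCI-Ly1 library and 3.79 in VAL replicate 2. Of the 3 genes of the CDK-activating kinase, CDK7 (3.38 and 3.84) and CCNH (3.82 and 12.8) passed in both lines. The 3 activators of PLK1 and AURKA had no passing peak. The Greatwall branch holds back the phosphatase that opposes CDK1, and its 6 genes were counted with subunits of that phosphatase. Of these 6 genes, 1 passed in either line, a subunit of the phosphatase, and none in both.

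Among 11 genes for the transcription of G2/M genes, 7 passed in either line and 3 in both (27.4% and 12.6% of protein coding genes). These were NFYA, a subunit of NF-Y (5.97 and 5.19), and LIN37 (3.34 and 3.42) and LIN54 (3.72 and 4.23) of the MuvB complex. The best summits of LIN37 and LIN54 were 2967 and 2253 bp apart in the OCI-Ly1 library and VAL replicate 2. Of the 6 genes of mitotic exit and protein destruction, 3 passed in either line, and only BTRC, which directs WEE1 to destruction (5.10 and 9.48), passed in both. Of the 6 scaffolds and inhibitors 4 passed in either line, and only YWHAB, a 14-3-3 protein (8.14 and 11.3), passed in both.

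**Figure D4:**
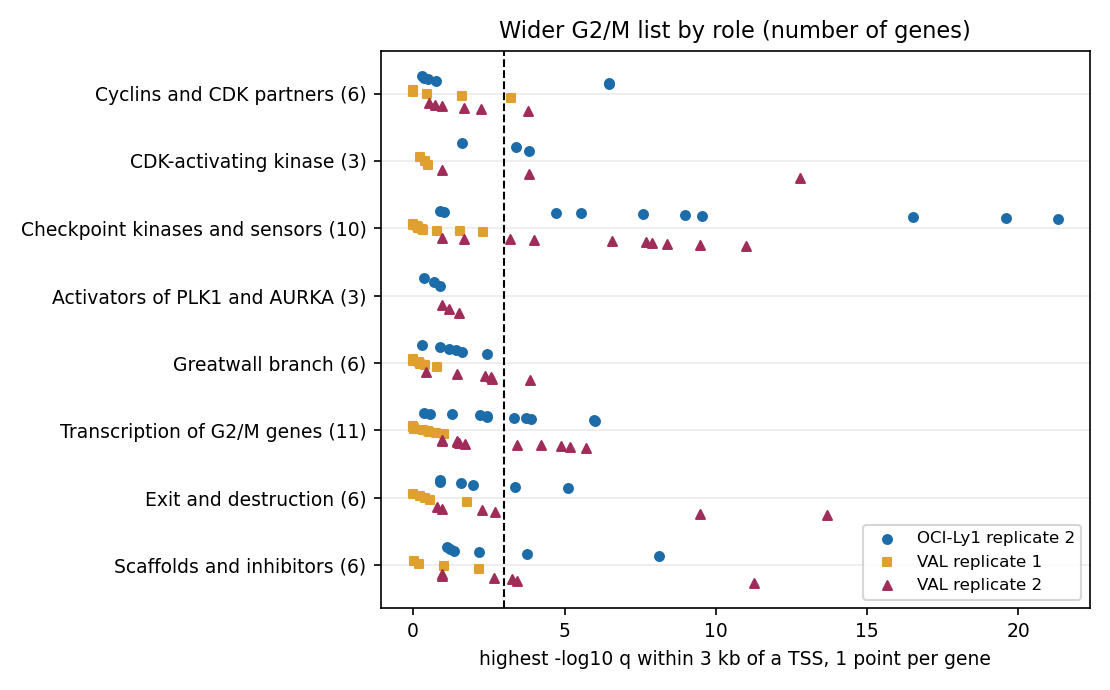
Highest -log10 q (x axis) of each of the 51 further G2/M genes, 1 point per gene, grouped by role (y axis, number of genes in brackets) in 3 libraries, with the threshold of 3 as a dashed line. Checkpoint kinases and sensors reach 21.3 in the OCI-Ly1 library, whereas the 3 activators of PLK1 and AURKA stay below the threshold.

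The protein coding genes with values most like those of WEE1 over the 3 libraries, by the smallest largest difference in best -log10 q, were PER1, ARMH1, NMBR, VTA1 and USB1. PER1, a clock gene, had 5.33 in the OCI-Ly1 library, 1.59 in VAL replicate 1 and 3.27 in VAL replicate 2, within 0.229 of WEE1 in each. NMBR and VTA1 had identical values and differed from WEE1 by at most 0.427.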

How the data were processed

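FLI1 ChIP-Seq was analysed from 3 peak lists (OCI-Ly1 replicate 2, VAL replicates 1 and 2), all on GRCh37. OCI-Ly1 replicate 1 was left out and the input DNA had no file used here. Per the paper's methods, the authors aligned reads with bowtie2 to GRCh37, filtered with SAMtools for unique reads without duplicates and a mapping quality of at least 10, and name HOMER at an FDR of 0.001. The submitters' processing notes name CASAVA 1.4, BWA and hg19. The caller, control and settings of the deposited lists, which have 10 columns in MACS2 form, are not given in the sources used here. The authors' caller made the fold enrichment, a ratio to local background, the -log10 p and the -log10 q of each deposited peak. The deposited score is 10 times the -log10 p and was not used. The deposited starts, ends and summits gave positions.

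Reads and background were inferred with fold = (reads + 1) / (background + 1) and a Poisson p-value, with exact 95% intervals. TSS came from GENCODE release 44 lifted to GRCh37, and GGAA words were sought within 50 bp of summits. The design has no conditions, so no test was run. Counts stand beside those of all 20176 protein coding genes. All 10 genes are named, with neighbours that have a TSS within 3 kb of a best passing peak. Of the 51 further genes those passing in both lines are named, and of the others only those that pass in VAL replicate 1. The 5 genes most like WEE1 are named as well. The genes and lists were chosen with earlier results of these data known. The sequence of 1 site is not reported here. Versions were samtools 1.23.1, pysam 0.24.0, matplotlib 3.10.9, scipy 1.17.1, pandas 2.3.3, numpy 2.4.6 and python 3.11.15.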

Additional observations from a re-analysis of the deposited data

How the results depend on the processing

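With all listed peaks counted, 10 genes had a peak in the OCI-Ly1 library, 10 in VAL replicate 2, 6 in VAL replicate 1, 10 in either line and 10 in both lines, as did all 51 further genes in either line. At a -log10 q of at least 5, 1 gene was left in OCI-Ly1 replicate 2 (WEE1) and 1 in VAL replicate 2 (CDC25C), 2 in either line, 0 in both, and 17 of the 51. With only the 5′ end counted, 1 gene passed in OCI-Ly1 replicate 2, 1 in both lines and 1 with overlapping peaks, WEE1 each time. With each library left out in turn, the number in both lines was 0 to 3 and in either line 3 to 4, and without each VAL library the number of the 51 was 21 to 27. Leaving out OCI-Ly1 replicate 2 or VAL replicate 2 gives the 0. The number of passing genes with a motif at the best summit was 4 for GGAA and 0 for CCGGAAGT in place of 1. A minimum fold of 4, the summit in place of the centre and a distance of 1 kb moved no count by more than 1.5 times. Counting a peak only for the protein coding gene with the closest TSS left 3 genes in either line, without CDC25B, and 2 in both, without PKMYT1, whose OCI-Ly1 peak went to its neighbour. Within 1 kb CDC25C no longer passed in OCI-Ly1 replicate 2 (0.875). The alternatives without OCI-Ly1 replicate 2, with the closest TSS only and for overlapping peaks were chosen after seeing the data. No paired analysis was possible because no test compared groups. The best peaks of the 10 genes had 2 to 10 reads.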
